A study of Mus musculus with 8 samples.

Results

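PD-1, encoded by Pdcd1, is an inhibitory receptor of T cells. The comparison described here is its loss in old mice: CD8 T cells of 17-month-old C57BL/6 mice that lack PD-1 (PD-1-/-, labelled PD-1KO) against those of wild-type (WT) mice of the same age, taken once without a tumor and once with one. The members were chosen by age label alone, and 4 of the series' 8 arrays met it. They form 2 pairs, PD-1KO against WT without tumor and PD-1KO against WT with tumor, called the tumor-free pair and the MC38 pair. Tumor-bearing mice had been inoculated with MC38, a mouse colon carcinoma line, and were killed 9 days later. Cells were captured with CD8a micro beads, and total RNA was labelled with Cy3 and hybridised to 1-colour Agilent arrays. The other 4 arrays hold the same 4 conditions in mice 2 months old, called young here. Tumor-free mice gave peripheral nodes and tumor-bearing mice draining nodes, so tumor and node type cannot be told apart. Each group has 1 array, the labels do not say whether animals were pooled, and the spread between animals is therefore not known.

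PD-1 is induced when a T cell receptor is engaged. When its ligands PD-L1 or PD-L2 bind, it recruits the phosphatase SHP-2, which dampens signalling from the receptor and from the costimulatory receptor CD28. Chronically stimulated CD8 T cells carry PD-1 together with other inhibitory receptors such as LAG-3, TIM-3 and TIGIT, a state called exhaustion, and blocking PD-1 is used to treat tumors. Old mice hold more antigen-experienced and fewer naive CD8 T cells than young ones.

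Levels below are log2 of the authors' processed signal minus the 75th percentile of the same array, so 0 is the signal of a probe at that percentile. A difference is PD-1KO minus WT on this log2 scale, and a difference of 1 is a 2-fold change. Levels of different genes are not comparable, since each probe has its own brightness. On the 4 arrays 46.9% to 48.0% of probes were well above background, and levels of 2 arrays correlated at r of 0.97 to 0.99 across 21376 features. They differed in brightness. The 75th percentile of the signal was 292 for tumor-free WT, the lowest of all 8 arrays, against 382 for tumor-free PD-1KO and 356 for each MC38 array. A feature is a gene, or a probe without a gene symbol. The CD8 identity of the cells could be checked. Cd8b1, the beta chain of CD8, read 8.36 and 8.16 in the tumor-free pair and 7.60 and 8.13 in the MC38 pair (WT first, as in all pairs of values below). Cd8a read 4.50 and 4.68, then 4.22 and 4.63, and Cd4 read 1.65 and 1.51, then 1.78 and 1.57. The CD8 markers were thus bright on all 4 arrays, and Cd4 was also well above background on each.

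Pdcd1 itself did not separate the labels. Its level was -0.10 in WT and 1.87 in PD-1KO in the tumor-free pair, and 2.73 in WT and 2.74 in PD-1KO in the MC38 pair. The tumor-free WT array alone was low. The difference was 1.97 in the tumor-free pair and 0.01 in the MC38 pair (limma estimate 0.99, SE 0.50, adjusted p = 0.58). In young mice the PD-1KO arrays read lower than WT, by -0.66 without and -1.38 with tumor, and the test of age by genotype gave an unadjusted p of 0.040 and an adjusted p of 0.98 (limma). A single probe measures Pdcd1, and the sources used here do not say whether the deletion removes its target, so it does not check the genotype labels. The genotypes are used below as the arrays are labelled.

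The 2 pairs shared few of their differences. In the tumor-free pair 439 features were at least 2-fold higher in PD-1KO (2.05% of the 21376 tested) and 360 at least 2-fold lower (1.68%). In the MC38 pair 910 were higher (4.26%) and 1170 lower (5.47%). A feature was counted only if its brighter array was well above background. In both pairs, 133 features were higher (0.622%) and 66 lower (0.309%), and 97 were 2-fold apart in opposite directions (0.454%), of which 41 (0.192%) were higher in the tumor-free pair and 56 (0.262%) lower there. The 133 shared features are 30.3% of those higher without tumor and 14.6% of those higher with MC38. The 66 are 18.3% and 5.64% of the lower ones. Over all features the differences of the pairs correlated at r = 0.11, a description across features that are not independent. Median differences were -0.05 and -0.03, with SDs over features of 0.48 and 0.68. Of all 21376 features, 9272 were above 0 without tumor and 10189 with MC38, the base for the counts above 0 given below.

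Limma fits over all 8 arrays, which take their error from how far the pairs of an age differ, called no feature for genotype at 17 months at an adjusted p under 0.05 (0 of 21376, 0%; the lowest was 0.098, for Tprg). At an unadjusted p under 0.05 there were 2028 (9.49%). On simulated data this fit recovered none of the changes put in, so its lack of calls does not show that genes did not differ. Some other settings made calls. With a common tumor effect for both ages limma called 8 features, with normexp background correction 2 and with an intensity trend 1; Ctse was among them each time. The counts also depend on dim probes: with all 4 arrays required to be well above background, 52 features were higher and 25 lower in both pairs, and with normexp 32 and 12. Scaling matters for the tumor-free pair, where higher features made up 54.9% of those 2-fold apart, against 69.7% after scaling to the median and 87.9% with no scaling, which moves the median of all features to 0.34. Of the features 2-fold apart in both pairs, 66.8% were higher, against 78.9% and 87.8%.

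**Figure D1:**
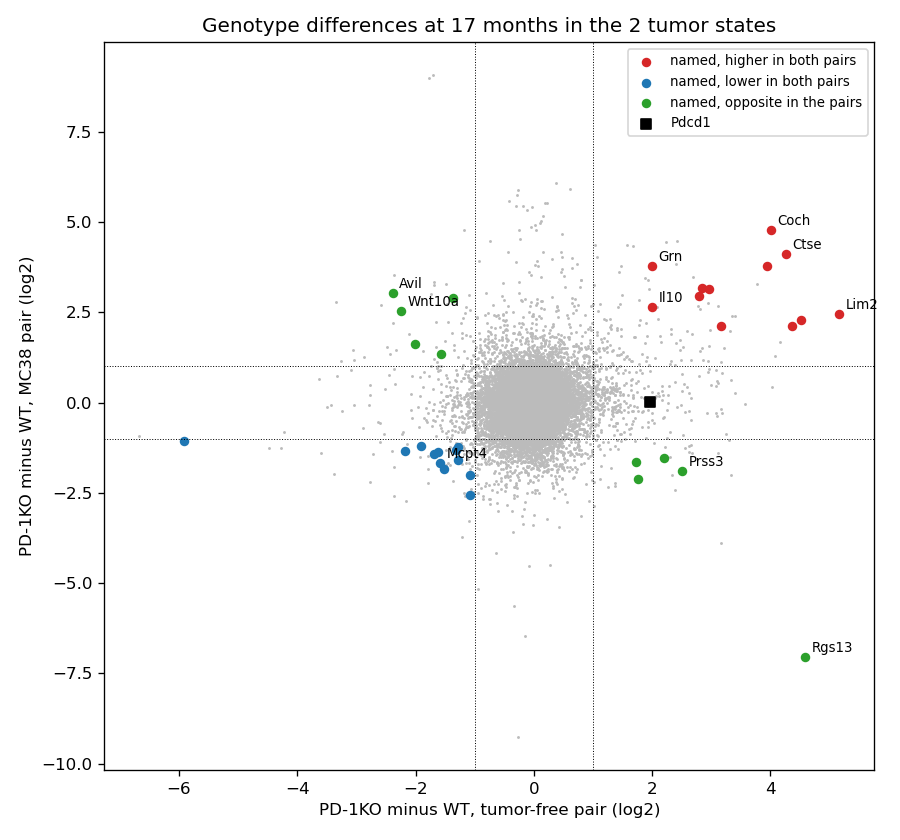
Difference between PD-1KO and WT (log2) in the tumor-free pair (horizontal) and in the MC38 pair (vertical) at 17 months, 1 grey point per feature, with dotted lines at 2-fold. Most features lie near 0 in both; Ctse lies at 4.26 and 4.12, Coch at 4.01 and 4.76, Rgs13 at 4.59 and -7.04, and Pdcd1 at 1.97 and 0.01.

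The genes highest without PD-1 in both tumor states were led by Ctse, cathepsin E, an aspartic protease of endosomes. Ctse read -0.11 and 4.15 in the tumor-free pair and -0.39 and 3.73 in the MC38 pair. Both PD-1KO arrays lay far above both WT arrays, by 19.2-fold and 17.4-fold (limma estimate 4.19, SE 0.23, adjusted p = 0.115). Il10, the anti-inflammatory cytokine IL-10, read -1.80 and 0.19, then -0.52 and 2.12. It was 4.0-fold and 6.24-fold higher, with both PD-1KO arrays again above both WT arrays (limma estimate 2.32, SE 0.26, adjusted p = 0.26). This order of the arrays held for 14.2% of all features. It held for 126 of the 133 higher in both pairs, but these were chosen by the same arrays, so the order largely follows from the choice. Il21, a cytokine of helper T cells that sustains CD8 T cells, read -2.45 and -0.94, then -1.19 and 0.22, differences of 1.51 and 1.41.

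Several of these genes were not well above background in WT cells. Where the dimmer array of a pair was not well above background, the fold is given as a bound against the higher of that array's lowest well-above-background signal and its own value. For Epha3 and Sostdc1 with MC38 its own value was the higher, so their fold is that read and not a lower limit. Coch, which encodes the matrix protein cochlin, read 0.16 and 0.38 on the PD-1KO arrays and was not well above background on either WT array, at -3.84 and -4.39. It was at least 12.9-fold higher without and at least 15.7-fold higher with tumor (limma, adjusted p = 0.28). Epha3, an ephrin receptor tyrosine kinase, was at least 5.35-fold higher without tumor and 8.84-fold higher with MC38, and a second, dimmer probe differed by 2.17 and 4.12. Sostdc1, a secreted antagonist of BMP and Wnt signals, was at least 4.39-fold higher without tumor and 7.74-fold higher with MC38. Tprg, whose adjusted p of 0.098 was the lowest, was at least 3.78-fold and at least 4.82-fold higher. Slc16a11, of the monocarboxylate transporter family, was at least 3.88-fold and at least 6.13-fold higher. These 5 genes passed the filter through the PD-1KO arrays alone, as did Rab17, Ren1 and Tnfsf13b, named below. Their lack of signal on the WT arrays thus comes with the way they were grouped. Of the 133 features higher in both pairs, 47 were well above background on 2 arrays only, and of the 66 lower ones 31.

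Lim2 (a lens membrane protein), Calca (calcitonin and CGRP) and Ttbk1 (a kinase of tau) were dim only in tumor-free WT cells. Lim2 read -5.59 and -0.43 in the tumor-free pair, at least 8.56-fold, and -1.97 and 0.48 in the MC38 pair, 5.47-fold. Calca was at least 4.41-fold and 4.31-fold higher, and Ttbk1 at least 4.24-fold and 4.33-fold. Rab17, a small GTPase of membrane traffic, was at least 5.42-fold and at least 4.39-fold higher by its brighter probe, while its second probe differed by 0.41 and 1.18. Grn, progranulin, depends on the probe. Its brightest differed by 1.99 and 3.77, and the others by 0.47 and 0.79 and by 0.12 and -0.21, so no difference is claimed for the gene. Over the 12 genes of this group limma's adjusted p ran from 0.098 to 0.51.

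**Figure D2:**
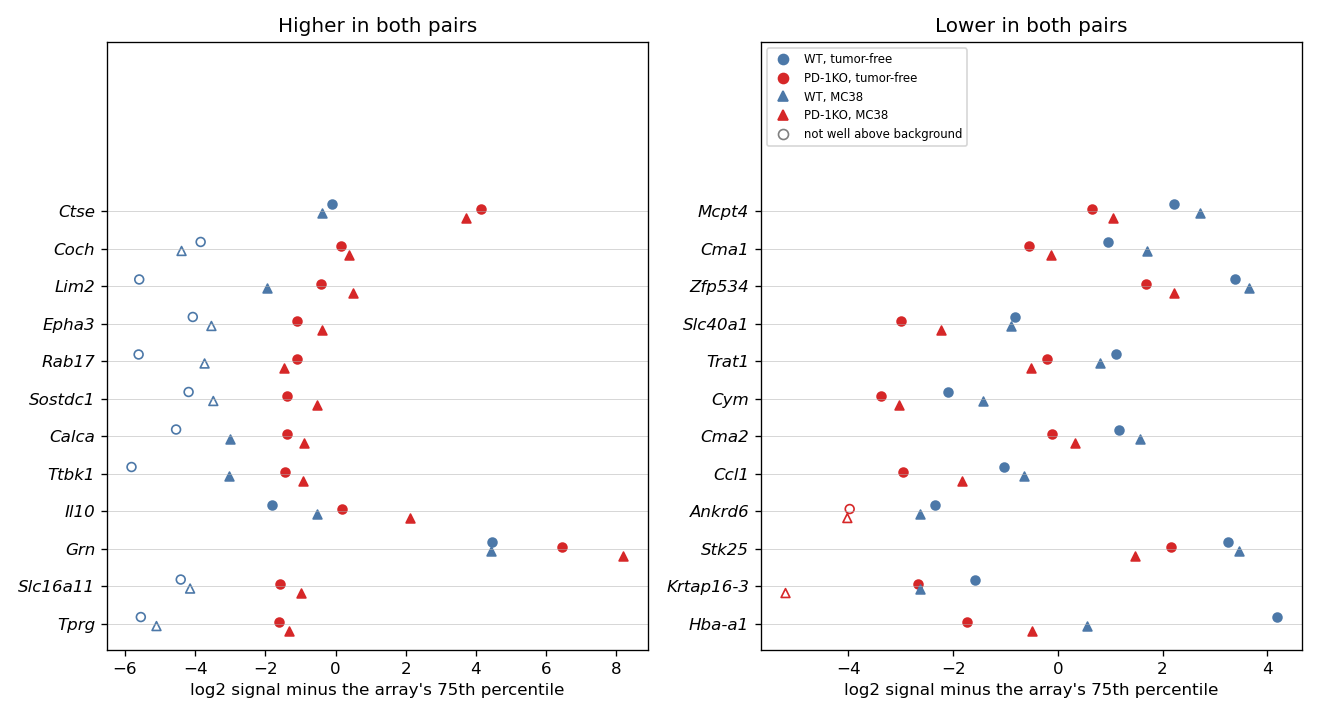
Level (log2 signal minus the array's 75th percentile, horizontal) of the 12 genes named as higher and the 12 named as lower in both pairs on each of the 4 arrays; blue is WT, red PD-1KO, circles tumor-free, triangles MC38, open symbols not well above background. Red and blue symbols of a gene lie apart except for Krtap16-3, whose tumor-free PD-1KO and MC38 WT arrays read -2.67 and -2.64.

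Mast cell genes were prominent among those lower without PD-1 in both pairs. Mcpt4 and Cma1 encode chymases stored in mast cell granules. Mcpt4 read 2.22 and 0.65 in the tumor-free pair and 2.71 and 1.05 in the MC38 pair. Cma1 read 0.96 and -0.56, then 1.70 and -0.14. Both PD-1KO arrays were below both WT arrays, as for 22.4% of all features. The same held for all 66 features lower in both pairs, where it largely follows from how they were chosen. Limma estimates were -1.62 (SE 0.20, adjusted p = 0.30) for Mcpt4 and -1.68 (SE 0.20, adjusted p = 0.29) for Cma1. Cma2, a further chymase, differed by -1.28 and -1.24. Of the 11 mast cell and basophil markers 7 were measured, of which 1 was above 0 without tumor and 0 with MC38. The share of all features lower in both pairs by any amount was not counted; 6 of the 7 markers were lower in both and none higher in both. Among them Mcpt4, Cma1, Tpsb2 (a tryptase) and Fcer1a (the IgE receptor's alpha chain) were at least 2-fold lower in both, 4 genes, where 0.309% of all features were. The list's median difference was -1.05 without and -1.03 with tumor, beside -0.05 and -0.03 over all features. Its summed signal, in units of the array's 75th percentile, was 10.02 and 4.17 in the tumor-free pair and 13.2 and 5.08 in the MC38 pair. Fcer1a was close to background, at -2.53 and -3.54, then -2.49 and -3.53, and Mcpt8 was not kept by the filter. In bulk RNA, fewer cells of a type and less RNA per cell cannot be told apart. In young mice the list was lower in the same way without tumor, with a median of -1.18, and at -0.62 with tumor.

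Genes with other roles were lower as well. Trat1, an adaptor that stabilises the T cell receptor complex, read 1.11 and -0.21, then 0.80 and -0.52, and its second probe differed by -1.38 and -1.36. The differences of -1.32 and -1.31 were nearly equal in the 2 pairs (limma SE 0.17, adjusted p = 0.32). Slc40a1, the iron exporter ferroportin, read -0.82 and -3.00, then -0.88 and -2.23, and was 4.53-fold and 2.55-fold lower. Ccl1, a chemokine that binds CCR8, differed by -1.92 and -1.19. Zfp534, a zinc finger gene, differed by -1.69 and -1.43, and Cym, which encodes chymosin, by -1.28 and -1.60. Stk25, a stress-related kinase, differed by -1.09 and -2.0, and its second probe by -1.03 and -1.41. Hba-a1, a hemoglobin alpha chain, differed by -5.92 and -1.06 and is described with the erythroid markers. Ankrd6 was at least 2.24-fold and at least 2.18-fold lower. Krtap16-3, a keratin-associated protein gene, was 2.12-fold and at least 2.18-fold lower. Limma's adjusted p for these 12 genes ran from 0.29 to 0.54. At the edge of the 2-fold threshold, Cxcl10 (1.0001 and 1.39) was counted and Hp (0.996 and 1.08) was just below; on the lower side Ehf (-1.004 and -1.58) was counted and S1pr3 (-0.997 and -1.64) was not.

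Few of these differences were also 2-fold in both young pairs, whose arrays are separate. At least 2-fold differences in both young pairs were found for 17 features higher (0.0795%) and 25 lower (0.117%). Of the 17, 6 (35.3%) were among the 133 higher at 17 months, of which they are 4.51%, and 3 of the 25 (12%) among the 66 lower, 4.55% of them. With a gene symbol, these were Ctse, Il10, Ren1, Rab17 and Pam, higher, and Stk25, lower. All 6 of them lie on chromosome 1, the chromosome of Pdcd1. Pam, which encodes an enzyme that amidates peptides, differed by 1.23 and 2.29 at 17 months and by 2.07 and 1.92 in young mice. Ren1, renin, differed by 2.09 and 2.32, and by 2.10 and 2.45 in young mice, and was at least 3.60-fold and at least 4.87-fold higher at 17 months. Stk25 differed by -1.24 and -1.35 in young mice. In the gene order of the RefSeq mouse assembly, Stk25 is separated from Pdcd1 by 13 genes, Pam by 30 and Rab17 by 95, of 2978 on the chromosome, whereas Il10, Ctse and Ren1 lie 319, 335 and 392 genes away. Chromosome 1 held 11 of the 95 genes with a symbol higher in both aged pairs (11.6%) and 5.57% of all features with a symbol. Ren1 and Pam were named after their values were seen.

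Other genes differed in the aged pairs with smaller differences in the young ones. Tprg, Epha3, Calca and Tnfsf13b were not well above background on any young array, so their young differences rest on dim signals. Probes had been kept by the aged arrays alone. Epha3 differed by 2.96 and 3.14 in aged and by 0.14 and -0.21 in young pairs. Calca differed by 3.16 and 2.11 against 0.08 and -0.23. Trat1 differed by -1.32 and -1.31 against 0.01 and -0.33. The difference between the ages was itself tested, and limma called no feature for age by genotype at an adjusted p under 0.05 (0 of 21376, 0%). Its lowest adjusted p was 0.845, shared by 5 features, among them Epha3 (estimate 3.09, SE 0.25), Tprg (estimate 2.51, SE 0.23) and Tnfsf13b (estimate 2.92, SE 0.28), and 775 features (3.63%) had an unadjusted p under 0.05. The 133 features higher in both aged pairs had medians of 0.21 and 0.38 in the young tumor-free and MC38 pairs, beside -0.01 and -0.04 over all features. Of the 133, 69 were above 0 in both young pairs and 15 below 0 in both. The share of all features with the same sign in both young pairs was not counted. Over all 21376 features, 10324 were above 0 in the young tumor-free pair and 9640 in the young MC38 pair.

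In the genes that differed in the tumor-free pair alone, the array that stood apart was mostly WT. Among the 19338 features well above background on all 4 arrays, 120 were at least 2-fold higher without tumor and within 0.5 of 0 with MC38 (0.621%). The array farthest from the mean of the others was tumor-free WT for 114 of the 120. That array was also the dimmest before scaling, and whether its brightness has a part in this was not tested. Tmprss13, a membrane serine protease, read -2.28 and 0.90 in the tumor-free pair and 2.05 and 1.75 in the MC38 pair. Ccl3, a chemokine made by activated CD8 T cells, read 1.46 and 3.63, then 4.15 and 4.47, a 4.50-fold difference without tumor and 1.25-fold with. Apobec2, of the cytidine deaminase family, read -0.52 and 1.90, then 2.93 and 2.80. Tumor-free WT cells were low for each of these, and tumor-free PD-1KO cells approached the level of both tumor-bearing groups. Map2 and Dpysl5, genes of the neuronal cytoskeleton, were 6.32-fold and 6.14-fold higher without tumor. Lmo1, a LIM-domain transcription cofactor, Myom2, a muscle sarcomere gene, and Itga7, an integrin chain, were 6.00-fold, 4.52-fold and 4.49-fold higher. For Map2 a second, dim probe was lower with MC38, by -1.44. In young mice 7 of these 8 genes were also above 0 in both pairs, a joint count for which the share over all features was not counted. Among the 7, Dpysl5 and Myom2 were not well above background on any young array. In the young tumor-free pair Myom2 differed by only 0.04 and Lmo1 by 0.12. Limma's adjusted p at 17 months ran from 0.53 to 0.67, as its error counts the disagreement of the pairs.

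Several inhibitory receptors read this way, with a smaller difference in the MC38 pair. Lag3, which encodes LAG-3, read -0.07 and 2.31 in the tumor-free pair and 2.72 and 3.29 in the MC38 pair, and its second probe differed by 2.43 and 1.59. Havcr2, encoding TIM-3, read -0.44 and 1.31, then 2.00 and 2.30. Tigit read -0.57 and 0.93, then 1.09 and 1.91. For these, as for Pdcd1, the tumor-free WT array was the lowest of the 4 and the tumor-free PD-1KO array second lowest. Ctla4 differed more with tumor, reading 0.62 and 1.37, then 0.89 and 2.44. In a list of inhibitory receptors and genes often found with them, 21 genes were measured. The list leaves out PD-1 and holds Casp4, an inflammatory caspase. Without tumor 18 of the 21 were above 0, and with MC38 12 were. In both pairs 10 were higher and 1 was lower, joint counts for which the share over all features was not counted. Lag3, Havcr2, Tigit and Casp4, 4 genes, were at least 2-fold higher without tumor, beside 2.05% of all features. With MC38, 3 were at least 2-fold higher and 3 at least 2-fold lower, beside 4.26% and 5.47% of all features, among the latter Klrg1, a receptor of terminally differentiated cells, at 3.04 and 0.90. The list's median difference was 0.52 without and 0.41 with tumor. It stayed above 0 in both pairs in each of 5 other scalings and background settings. None of the 21 passed limma (adjusted p = 0.51 for Lag3 and Tigit, 0.59 for Havcr2 and 0.45 for Ctla4).

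**Figure D3:**
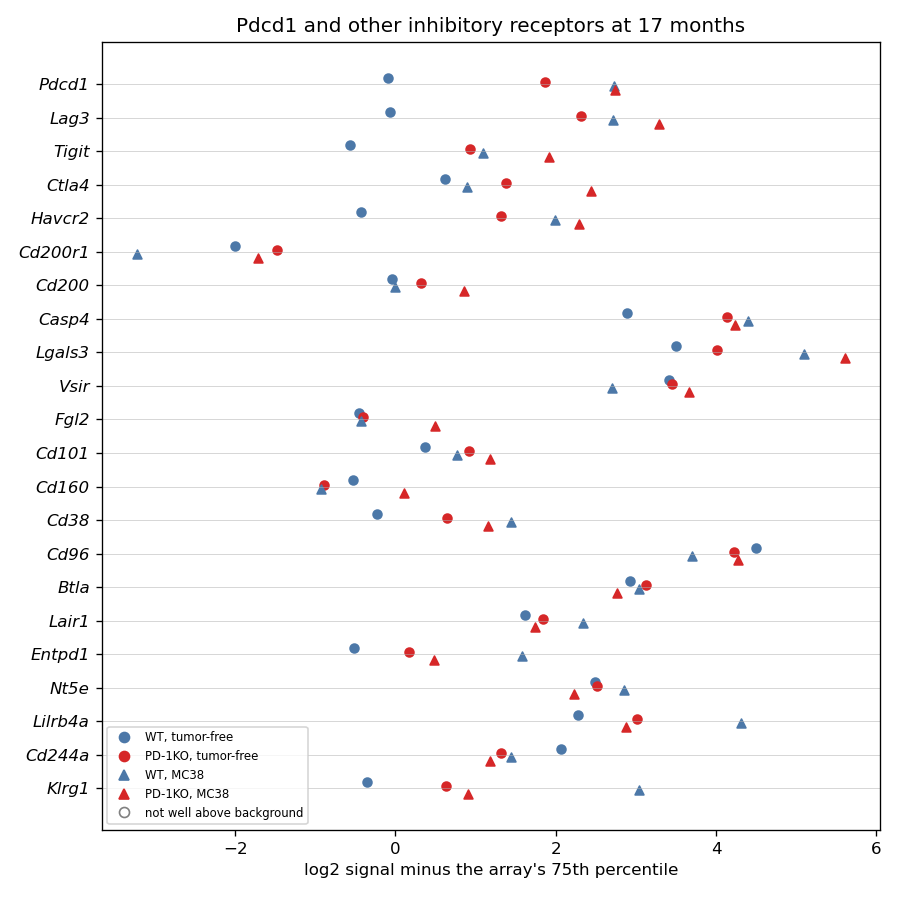
Level (log2 signal minus the array's 75th percentile, horizontal) of Pdcd1 and the 21 other genes of the inhibitory receptor list on the 4 arrays of 17-month-old mice; colours and symbols give genotype and tumor. For Pdcd1, Lag3, Tigit and Havcr2 the tumor-free WT array is lowest, and for Klrg1 the MC38 WT array is highest at 3.04.

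Transcription factors and other genes of exhausted cells had a median difference of 0.56 without and 0.11 with tumor, and 15 of 16 were above 0 in the tumor-free pair. Maf read 0.94 and 2.59, then 2.34 and 2.68. Tumor-free WT cells were again low. Ikzf2, which encodes Helios, was the only list member at least 2-fold higher in both pairs, at -0.65 and 0.41, then -0.30 and 1.08. Id3, of progenitor cells, and Xcl1, a chemokine of the same cells, differed more with tumor, by 1.18 and 1.51, than without, by 0.57 and 0.48. Of 22 cytotoxicity and effector cytokine genes, 4 were at least 2-fold higher and 3 lower without tumor, beside 2.05% and 1.68% of all features. With MC38, 1 was higher and 1 lower, beside 4.26% and 5.47%. Gzma, granzyme A, read 2.28 and 2.84 in the tumor-free pair and 7.39 and 4.63 in the MC38 pair, so that MC38 WT cells were highest and PD-1KO cells 6.78-fold lower. Gzmk, granzyme K, named after its values were seen, read 1.29 and 3.29, then 4.43 and 3.95. Gzmm, granzyme M, differed by -1.17 and -0.73. Tnf differed by 0.23 and 1.31.

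Interferon response genes were higher on the tumor-free PD-1KO array than on the WT array in 41 of 44 cases, with a median of 0.52, and in 21 of 44 with MC38, with a median of -0.08. Without tumor 5 of the 44 were at least 2-fold higher, beside 2.05% of all features. Iigp1, an interferon-induced GTPase, read 1.46 and 3.40, then 3.02 and 3.09. Igtp, of the same family, was about equally higher in both pairs, by 0.98 and 0.95, and Gbp6 by 1.06 and 0.49. Isg20, an exonuclease, differed by 0.22 and 1.26. Cell cycle genes were above 0 in 38 of 45 cases without and 21 of 45 with tumor, with medians of 0.25 and -0.02. Cdk1 alone was 2-fold higher in both, at -3.05 and -1.90, then -1.47 and 0.20. These medians without tumor were above 0 in each of 5 other scalings and background settings too. No member of either list passed limma (adjusted p of 0.39 for Igtp and 0.51 for Cdk1).

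Fewer genes were lower without tumor and level with it: 69 features (0.357%), with tumor-free WT farthest from the other arrays for 58. Cxcl1, a neutrophil chemokine, read 0.83 and -2.42 in the tumor-free pair and -3.08 and -3.32 in the MC38 pair. It was bright on the tumor-free WT array only. Atp5k, a subunit of ATP synthase, read 5.83 and 4.0, then 5.86 and 5.70, low on the tumor-free PD-1KO array only. Utp14b, a ribosome biogenesis gene, was 4.24-fold lower, Zbtb10 3.28-fold, Mapk12 3.21-fold, Slc23a3 2.93-fold, Gdf9 2.88-fold and Fam83e 2.62-fold. For Mapk12 a dim second probe differed by -0.81 and 1.25.

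Markers of other cells moved with the tumor-free pair. Hemoglobin genes were brightest on the tumor-free WT array. Hba-a1 read 4.19 and -1.73, then 0.55 and -0.50. Hba-a2 differed by -5.97 and -1.04, and Hbb-bt by -6.67 and -0.93; Hba-a1 and Hba-a2 are near-identical copies that one probe can share. Over the 6 of 13 erythroid markers measured, the summed signal was 49.0 and 4.02 in the tumor-free pair and 5.66 and 5.70 in the MC38 pair, and Alas2 was not kept by the filter. With MC38 the median difference of the 6 was -0.68, and 2 were above 0, among them Car2, which differed by 3.21. B cell markers (21 of 22) summed to 445 and 512, then 424 and 506. The part of these cells in the differences of the tumor-free pair was not tested. With 1 array per group, leaving out the tumor-free WT array leaves no tumor-free difference.

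**Figure D4:**
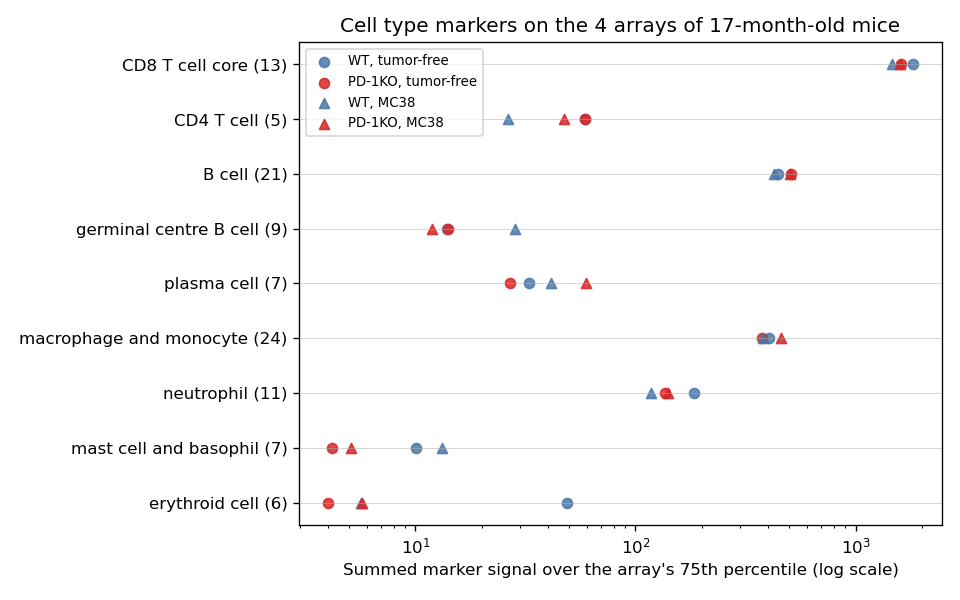
Summed signal of the measured markers of each cell type, divided by the array's 75th percentile (log axis), on the 4 arrays of 17-month-old mice; the number of markers is in brackets. Erythroid markers stand out on the tumor-free WT array at 49.0, mast cell markers are lower on both PD-1KO arrays (4.17 and 5.08), and germinal centre B cell markers are highest on the MC38 WT array at 28.3.

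In the MC38 pair alone, 370 features (1.91% of 19338) were at least 2-fold higher and 666 (3.44%) at least 2-fold lower, each within 0.5 of 0 without tumor. Unlike in the tumor-free pair, both arrays took part: of the 370, MC38 WT was the array farthest from the others for 207 and MC38 PD-1KO for 163, and of the 666 for 251 and 415. Ifitm1, an interferon-induced membrane protein, read -1.15 and -1.14, then -1.35 and 2.46. It was bright on the MC38 PD-1KO array only, 14.0-fold above WT. Ldhb, a lactate dehydrogenase subunit, read 2.25 and 2.55, then -0.48 and 2.44, low on the MC38 WT array only. The same array was low for Spry2, an inhibitor of growth factor signalling (0.04 and 0.10, then -2.13 and 0.72), though a second probe differed by 0.09 with MC38. It was low too for Cdh1 (E-cadherin), Wls (a carrier of Wnt proteins), Ly6k, Ppic (a cyclophilin) and Kcnj8 (a potassium channel), which were 5.72-fold, 5.48-fold, 5.28-fold, 5.15-fold and 5.02-fold higher in PD-1KO.

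Igfbp4 and Ramp1, both on the list for naive T cells, were also lowest on the MC38 WT array. Igfbp4, an IGF-binding protein, read 0.65 and 1.38, then -3.60 and 0.23. It was 14.1-fold higher with MC38 against the WT array's own value, which was not well above background, so this is not a lower limit. Ramp1, a receptor-modifying protein for CGRP, read 2.27 and 3.06, then -1.21 and 2.17; its second probe differed by 3.76 with MC38 and its last by -0.51. Actn1 differed by 0.07 and 1.19. Of 25 genes of naive and quiescent cells, 4 were at least 2-fold higher with MC38, beside 4.26% of all features, and 15 were above 0, with a median of 0.15. Without tumor 7 of 25 were above 0, with a median of -0.17, which was 0.22 with no scaling.

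Among genes lower with MC38 alone, Sox5, a transcription factor, read 5.34 and 5.32, then 5.68 and 2.29. Pnma2, a neuronal antigen gene, read 1.62 and 1.63, then 1.88 and -0.55, and Gramd3 read 3.34 and 3.01, then 3.36 and 1.03. For these 3 the MC38 PD-1KO array was low and the other arrays were alike. Myb, a transcription factor of progenitor and proliferating cells, read 2.47 and 2.00, then 3.76 and 1.41, and its other 2 probes differed by -2.20 and -2.97 with MC38 and by -1.07 and -0.75 without tumor, so that by those probes it was lower in both pairs. Tafa3, a secreted peptide gene, was highest on the MC38 WT array (-2.46 and -2.75, then 0.95 and -1.43). Further genes depended on the probe. Pcf11, an mRNA cleavage factor, differed by -3.14 with MC38 by its brightest probe, and by -0.63 and -1.13 by the others. Pibf1 differed by -2.51 and by 0.53, and Tdgf1 by -2.24 and by -0.58. Limma's adjusted p of the 16 genes named for the MC38 pair ran from 0.51 to 0.60.

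Opposite differences in the 2 tumor states were largest for Rgs13, a regulator of G protein signalling in germinal centre B cells. Rgs13 was well above background only on the tumor-free PD-1KO array, at -1.15, and on the MC38 WT array, at 1.34. It was at least 5.20-fold higher in PD-1KO without tumor and at least 34.3-fold lower with it, and its second probe differed by 3.19 and -5.06. Prss3, a trypsin, read -1.24 and 1.27, then 2.68 and 0.79. Esm1 (endocan), Gbp2b (a guanylate-binding protein) and Ret (a receptor tyrosine kinase) were also higher in the tumor-free and lower in the MC38 pair. In the other direction Wnt10a, a Wnt ligand, read 0.67 and -1.58, then -2.44 and 0.09. Klrb1c, which encodes NK1.1, read 0.58 and -1.44, then -1.15 and 0.48, and its other probes differed by -1.72 and 0.23 and by -2.16 and 1.42. Avil (an actin-binding protein), Wfdc2 (a secreted protease inhibitor) and Zmynd15 (a zinc finger gene) followed the same direction. The test of genotype by tumor, fitted over both ages, called no feature at an adjusted p under 0.05 (limma, 0 of 21376, 0%), and 670 (3.13%) had an unadjusted p under 0.05.

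Markers of B cells and other cells moved with the MC38 pair. Of the 9 germinal centre B cell markers measured, none was above 0 with MC38, 5 were at least 2-fold lower beside 5.47% of all features, and the median was -1.07. Without tumor 7 of 9 were above 0, with a median of 0.37. Basp1, a member of that list, was lower in both pairs, by -0.98 and -1.52. The list's summed signal was 13.9 and 14.1, then 28.3 and 11.9. Neutrophil markers (11 of 15 measured; Ly6g was not kept) had a median of 0.91 with MC38, with 10 of 11 above 0 and 5 at least 2-fold higher beside 4.26% of all features, and of -0.30 without tumor, which was 0.09 with no scaling. They summed to 184 and 136, then 117 and 141. Plasma cell markers (7 of 12) summed to 33.0 and 26.9, then 41.4 and 59.4, and CD4 T cell markers (5 of 6) to 58.9 and 58.8, then 26.4 and 47.1. With MC38, 4 of these 5 CD4 T cell markers were above 0, but Cd4 itself differed by -0.14 and -0.21. Vcam1, a macrophage and stromal adhesion molecule, read 1.18 and 0.50, then 2.73 and 0.79. Nrp1, neuropilin-1 of regulatory T cells, read 0.69 and 1.67, then -0.20 and 2.00, while Foxp3, their defining factor, differed by 0.14 and 0.25. The part of these cells in the differences was not tested.

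In the list of protein folding and endoplasmic reticulum stress genes, 3 heat shock genes, Hspa1a, Hspa1b and Hspb1, were higher without PD-1 in both pairs, each more with MC38. Hspa1a and Hspa1b encode the inducible chaperone HSP70. Hspa1a read 2.85 and 4.29 in the tumor-free pair and 0.60 and 4.21 in the MC38 pair, and Hspa1b 2.50 and 4.0, then 0.32 and 3.30. The MC38 WT array was the lowest for both. Hspa1a was 2.71-fold and 12.2-fold higher, and Hspb1, a small heat shock protein, 1.56-fold and at least 6.43-fold. Limma's adjusted p was 0.51 for Hspa1a, 0.52 for Hspa1b and 0.51 for Hspb1. In young mice with tumor both HSP70 genes went the other way, by -2.73 and -2.75. These 2 genes are neighbouring copies whose transcripts are nearly identical, so their probes may share signal. Their promoters are shown because the genes differed together. The 250 bases before each start, on the minus strand of chromosome 17 in GRCm38.p6 (RefSeq), differ at 3 positions (98.8% identical). Hspa1a covers chr17:34972157-34972406 and Hspa1b chr17:34959239-34959488. Capitals mark a heat shock element core, GAANNTTC, found once in each, beginning 104 bases before the start. That motif was 1 of 4 searched on both strands, and 6.69% of 32851 promoter windows of 250 bases hold it. A longer form, the core followed by 2 unspecified bases and GAA, was in neither promoter (0.466% of windows). The other 2 motifs, forms of a GATA site, were searched in these promoters and in those of the mast cell genes Mcpt4, Cma1 and Cpa3. AGATAA (9.99% of windows) had 1 match, in Cpa3, and TGATAA (7.94%) had 1 match, in Mcpt4. The heat shock motifs had none in those 3 promoters.
Hspa1a: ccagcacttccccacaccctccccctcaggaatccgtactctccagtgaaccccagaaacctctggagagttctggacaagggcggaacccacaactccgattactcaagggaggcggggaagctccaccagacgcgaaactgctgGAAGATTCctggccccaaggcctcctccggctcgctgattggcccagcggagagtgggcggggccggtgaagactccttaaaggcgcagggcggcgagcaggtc
Hspa1b: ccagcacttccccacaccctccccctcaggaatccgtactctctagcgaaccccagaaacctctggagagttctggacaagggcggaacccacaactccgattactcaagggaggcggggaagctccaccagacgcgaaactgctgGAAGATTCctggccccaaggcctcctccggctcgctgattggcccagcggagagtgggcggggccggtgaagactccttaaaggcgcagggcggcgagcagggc

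Of the other 27 protein folding and endoplasmic reticulum stress genes measured, none was 2-fold apart in both pairs. The list's median was -0.05 without tumor, which was above 0 in the other scalings, and 0.14 with tumor. The medians of metabolic lists were close to the median of all features in both pairs. Fatty acid oxidation genes (28 measured) had medians of -0.07 and -0.05, and none was 2-fold apart in either pair; Hadh, a dehydrogenase of the pathway, differed by -0.34 and -0.82. Oxidative phosphorylation genes (52) had medians of -0.14 and 0.07, with 9 of the 52 above 0 without tumor and 35 with MC38. Glycolysis (24) stood at -0.01 and 0.05 and cholesterol synthesis (23) at 0.05 and 0.13. Polyamine genes (15) had medians of -0.06 and 0.13, with 3 above 0 without tumor and 8 with MC38. With no scaling the tumor-free medians of these 5 lists were all above 0, at 0.25 to 0.43, and so was that of all features, at 0.34. With MC38, 2 of the 15 polyamine genes were at least 2-fold lower, beside 5.47% of all features. For Eif5a, a translation factor modified with a part of spermidine, the brighter probe differed by -1.02 and the other by 0.72. The larger difference was that of Atp13a3, a polyamine transporter, which read 0.82 and 0.67, then 0.99 and -5.48, and was at least 26.9-fold lower on the MC38 PD-1KO array, where it was not well above background.

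The remaining lists differed between the tumor states or held single genes apart. NK cell receptors on T cells had medians of -0.42 and 0.38, with 6 of 22 above 0 without and 16 of 22 with tumor. Klra1 differed by -0.67 and -0.97 and Klra17 by 0.38 and 1.48. Chemokines and their receptors had medians of -0.43 and 0.15, and immediate early and activation genes of -0.28 and 0.18, the latter 0.11 without tumor when no scaling was applied. Among cytokines 3 of 25 were at least 2-fold higher in both pairs, Il10, Il21 and Tnfsf13b, beside 0.622% of all features. Tnfsf13b encodes the B cell survival factor BAFF and was at least 2.90-fold and at least 4.12-fold higher (limma, adjusted p = 0.18). Cxcl10, a chemokine induced by interferon, read 1.75 and 2.75, then 2.38 and 3.77. Perp, a p53 target, differed by 1.57 and 1.27, and Spp1, osteopontin, by 1.63 and 0.49. PD-1's ligands and signalling partners (24) had medians of -0.02 and 0.06.

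**Figure D5:**
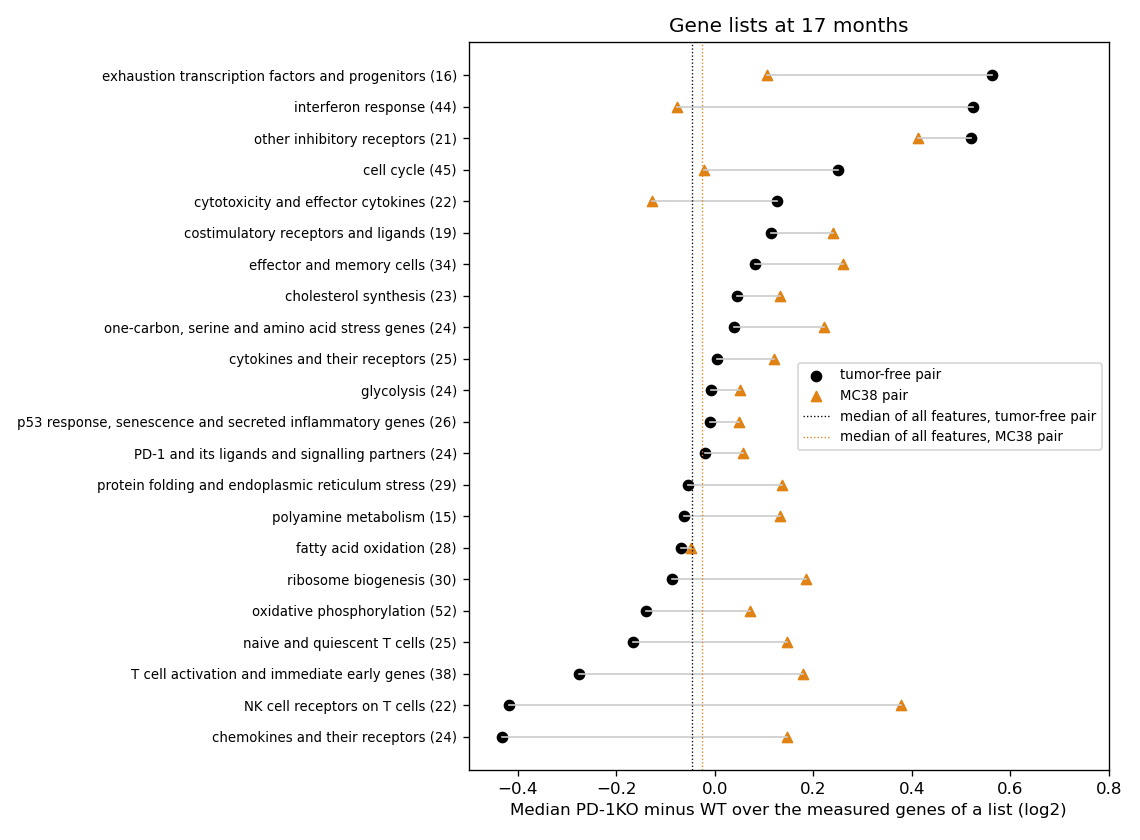
Median difference between PD-1KO and WT (log2) over the measured genes of each list, in the tumor-free pair (circles) and the MC38 pair (triangles); dotted lines give the median of all features. Exhaustion, interferon response and inhibitory receptor genes lie at 0.52 to 0.56 in the tumor-free pair, and only the inhibitory receptors stay near that in the MC38 pair, at 0.41.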

How the data were processed

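RNA of CD8 T cells from lymph nodes was measured on 1-colour Agilent arrays, 1 per group, all on 1 slide. The deposited scanner intensity files were made by the authors with Agilent Feature Extraction 11.0.1.1, per the submitters' processing notes, which subtracts background. The authors' deposited table of log2 values served as an alternative. The level is log2 of the processed intensity minus the array's 75th percentile. Probes well above background on 2 or more of the 4 aged arrays were kept, with the probe of highest mean level for each gene. Each genotype difference is 1 array minus 1 array. Limma 3.58.1 (R 4.3.3; lmFit, eBayes, Benjamini-Hochberg) was fitted to all 8 arrays with terms for age, genotype, tumor, age by genotype and age by tumor, and checked on simulated data, where it made no false call and recovered none of the changes put in. Its 2 residual degrees of freedom measure how far the tumor-free and MC38 pairs of an age disagree on the genotype difference. Its p-values therefore do not measure spread between animals, and whether that disagreement is technical was not tested.

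Genes were named by rule: Pdcd1; the 12 each way with the largest smaller difference among those 2-fold apart in both pairs, ranked with a difference against an array not well above background taken as its bound; the 8 each way largest in 1 pair and under 0.5 in the other; the 5 each way largest in opposite directions; and up to 4 members and the defining genes of each list. Predicted genes, clones, receptor segments and genes of chromosomes X and Y were left out of the first 4 sets. The exclusion of X and Y was applied after the values had been seen, and Tprg, Hba-a1 and Fam83e took the places of X-linked genes. Gzmk, Pam, Ren1, Klrg1, Casp4 and the genes at the 2-fold edge lie outside the rule and were named after their values were seen. The members and lists were chosen with earlier results of these data known. Alternatives were other scalings, backgrounds, filters, probe rules, folds and models, and each array left out. The 4 promoter motifs were chosen over the course of the work, some after the matches of others had been seen, and all are reported.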

Additional observations from a re-analysis of the deposited data

Results flagged for a closer look

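The genotype difference had opposite signs in the 2 tumor states, each at least 2-fold, for 97 features, of which the naming rule gives 10 genes. With 1 array per group, the opposition was not tested gene by gene; limma's test of genotype by tumor over both ages called none. The difference in the MC38 pair minus that in the tumor-free pair (log2) was -11.62 for Rgs13, -4.40 for Prss3, -3.87 for Esm1, -3.37 for Gbp2b and -3.73 for Ret. It was 4.77 for Wnt10a, 3.64 for Klrb1c, 5.41 for Avil, 4.26 for Wfdc2 and 2.90 for Zmynd15. Rgs13, Avil, Ret and Wfdc2 include arrays not well above background, so that their values depend on dim signals.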

How the results depend on the processing

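Counts of features 2-fold apart moved by over 1.5 times under several settings; the cause was not tested. With no scaling, 208 features were higher and 29 lower in both pairs, and 1053 and 145 in the tumor-free pair. With normexp background correction, which was run with an offset of 50 added to the signals, these were 32, 12, 139 and 88. In the MC38 pair it gave 378 higher and 397 lower, and 20 were opposite. The authors' value table, which left 18648 features in place of 21376, gave 44, 23, 188, 146, 521, 732 and 31. Requiring all 4 arrays above background gave 52, 25, 227 and 160, with 568 higher in the MC38 pair and 36 opposite, and no filter gave 690 lower in the tumor-free pair. A fold of 1.5 gave 344 higher and 395 lower in both pairs, a fold of 3 gave 48 and 6, and bounds against dim arrays 37 lower. Limma's 0 calls for genotype became 2 with normexp (Ctse at 3.94, adjusted p = 0.035), 8 with a tumor effect common to both ages and 1 with an intensity trend. Leaving out each array gave 0 to 0 calls for genotype and for age by genotype.

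Over the 125 genes named in the text, 1597 alternatives gave 1572 with the direction and side of the threshold kept, 11 moved, 1 past the threshold and 13 reversed, and 67 could not be measured. Leaving out single arrays, the genotype estimate ran from -2.76 to 0.56 for Gzma, -2.14 to 0.99 for Klrg1, -0.20 to 0.52 for Cd8b1, -1.02 to 0.22 for Eif5a, -0.48 to 1.99 for Gzmk and -0.17 to 1.25 for Casp4. It reversed without either MC38 array for the first 4 and without either tumor-free array for the last 2. With no scaling Cd4 reversed, to 0.023. The genes of the text were settled after these results were known, and they leave out most genes that reversed. Over all 212 genes that the naming rule gives, 2959 alternatives gave 94 reversed, in 40 genes, 11 moved and 1 past the threshold.

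No paired analysis was possible because the labels carry no replicate numbers and each group has 1 array. Spread between animals could not be measured, and signals near background limit the dim genes.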
